A study of Mus musculus with 4 samples.

Results

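The Dppa genes (developmental pluripotency-associated) are a set of genes named for their activity in pluripotent cells of the mouse, and 4 of them are described here: Dppa2, Dppa3, Dppa4 and Dppa5a. They are 4 of 19057 genes named on the array. Every probe whose annotated symbol was one of these names was taken, in all 9 of 45281 probes: 2 for Dppa2, 1 for Dppa3, 4 for Dppa4 and 2 for Dppa5a. The genes were put forward with the ATRA against DMSO contrast of these arrays already known, so their changes are a description and not a test. RNA came from E14, an established mouse embryonic stem cell line grown in serum medium with LIF, the cytokine that sustains self-renewal. One group had been exposed for 2 hours to all-trans retinoic acid (ATRA), which activates the retinoic acid receptors, and the other for 2 hours to DMSO, its vehicle, with 2 single-colour Illumina bead arrays per group. The source name calls the DMSO arrays untreated, the sources used here give no ATRA dose, and no label states that replicate arrays stem from separate cultures. The p-values below therefore reflect the spread between these arrays alone, which may be technical.

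Dppa2 and Dppa4 lie beside each other in the genome and encode related SAP-domain proteins, which bind DNA together, keep CpG-rich promoters of developmental genes open to later use, and act upstream of Dux and Zscan4 in the rare stem cells that resemble the early embryo. Dppa3, also known as Stella or PGC7, is a maternal factor of the egg and a marker of primordial germ cells that guards DNA methylation patterns in the zygote and holds the methylation cofactor Uhrf1 off chromatin. Dppa5a, also known as Esg1, encodes a small KH-domain RNA-binding protein that is abundant in embryonic stem cells. Retinoic acid drives such cells out of pluripotency.

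Of the 9 probes, 8 were detected on all 4 arrays, and 1 of these 8, the brighter Dppa2 probe, was higher with ATRA past the threshold. Among all kept probes 1.26% passed in that direction and 1.58% in either direction, figures against which nothing is read here because the genes were chosen on this contrast. The other 7 detected probes, for Dppa3, Dppa4 and Dppa5a, had changes within 0.1 of 0 on the log2 scale, and on all 7 the ATRA and DMSO values overlapped, while 40.8% of all kept probes had groups apart in either direction. Detected means a detection p under 0.05 against the negative control beads, and a probe was kept when this held on at least 2 arrays, whatever the group. Passing means an adjusted p under 0.05 in limma's moderated test over all 19112 kept probes. The lowest detected intensities lay between 104.4 and 106.3 on the 4 arrays.

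**Figure D1:**
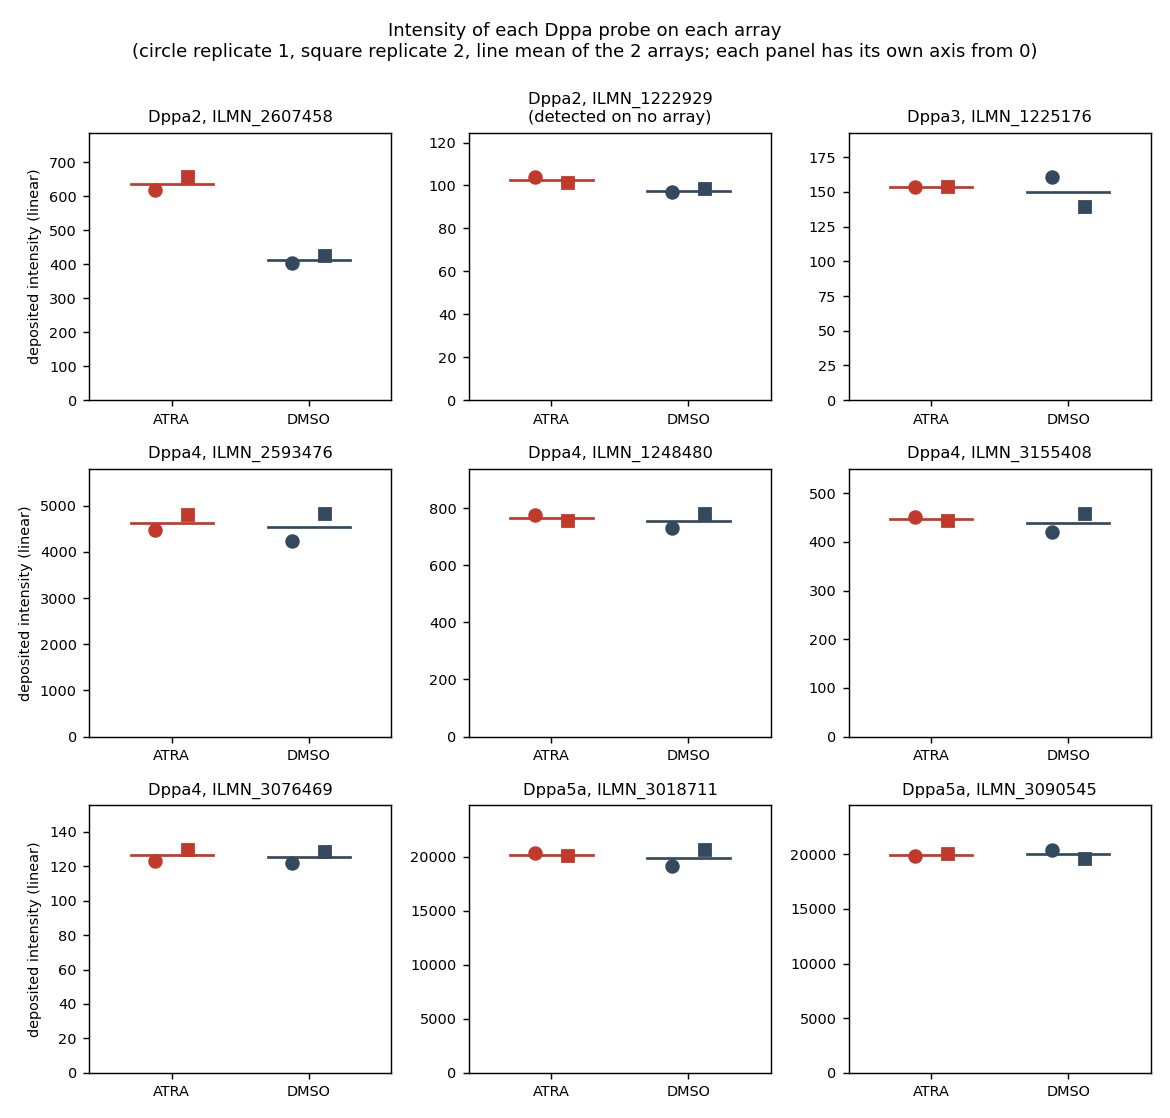
Deposited intensity (linear scale) of each of the 9 Dppa probes on each array, with 2 ATRA arrays in red and 2 DMSO arrays in dark blue; the line is the mean of the 2 arrays and each panel has its own axis from 0. The ATRA arrays stand clear of the DMSO arrays for Dppa2 probe ILMN_2607458 (618.1 and 655.1 against 402.7 and 423.7), while the groups overlap for Dppa3, Dppa4 and Dppa5a.

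The brighter Dppa2 probe, ILMN_2607458, had intensities of 618.1 and 655.1 on the ATRA arrays, against 402.7 and 423.7 on the DMSO arrays. Both ATRA arrays were above both DMSO arrays, and the smallest distance between the groups, 0.64 on the log2 scale, was larger than the distance between the arrays of either group (0.10 for ATRA and 0.09 for DMSO). After background correction the mean log2 intensity was 9.13 ± 0.07 with ATRA and 8.39 ± 0.06 with DMSO (SD, n = 2 each). The change was 0.74 (SE 0.09), or 1.67-fold with a 95% interval of 1.46 to 1.90, and the limma adjusted p over all kept probes was 1.7e-05. The ratio of the deposited intensities, from which no background is subtracted, was 1.54. Groups that did not overlap in this direction were found at 19.6% of all kept probes, and 71 other kept probes had a change at least as large as that of Dppa2. Dppa2 kept its side of the threshold with any array left out, with changes of 0.69 to 0.78.

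The other Dppa2 probe, ILMN_1222929, was detected on 0 of the 4 arrays, with detection p of 0.078 and 0.091 on the ATRA arrays and 0.233 and 0.185 on the DMSO arrays. Its intensities were 103.8 and 101.4 on the ATRA arrays, against 96.8 and 98.2 on the DMSO arrays, so the groups did not overlap, but every value was below the detection limit. Without the filter on dim probes its change was 0.19 (95% interval -0.06 to 0.45, limma adjusted p = 0.78 over all 45281 probes). The result for Dppa2 therefore rests on 1 probe.

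Dppa4, the partner of Dppa2, was measured by 4 probes, and on each of them the groups overlapped. The brightest, ILMN_2593476, had intensities of 4470 and 4795 on the ATRA arrays, against 4245 and 4829 on the DMSO arrays. Both ATRA values lay between the DMSO values. The change was 0.03 (SE 0.08), or 1.02-fold with a 95% interval of 0.911 to 1.15 (limma adjusted p = 0.94).

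Probe ILMN_1248480 of Dppa4 gave 775.8 and 756.7 on the ATRA arrays, against 731.5 and 781.4 on the DMSO arrays, and its change was 0.02. Probe ILMN_3155408 gave 450.7 and 443.9 on the ATRA arrays, against 419.8 and 458.0 on the DMSO arrays, with a change of 0.04. On both, the ATRA values again lay inside the range of the DMSO values. The dimmest Dppa4 probe, ILMN_3076469, gave 123.1 and 129.3 on the ATRA arrays, against 121.9 and 128.2 on the DMSO arrays, with a change of 0.04. It lay close above the detection limit and had the widest interval of the Dppa4 probes, from 0.831-fold to 1.27-fold. Adjusted p-values of the 4 probes ran from 0.94 to 0.96. A rise of the size measured for Dppa2, 1.67-fold, was outside the interval of every Dppa4 probe, although the difference between the changes was not tested.

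The DMSO arrays differed from each other on Dppa4 more than the ATRA and DMSO means did. DMSO replicate 2 was above DMSO replicate 1 on all 4 Dppa4 probes, by 0.11 to 0.19 on the log2 scale, while over all kept probes the median of this gap was -0.0012 and 49.6% of probes were higher in replicate 2. The 4 probes read the same RNA on the same arrays and are not independent of each other. The sign of the small Dppa4 change varied with the array left out, in either group. By the brightest probe it was -0.06 without DMSO replicate 1 and 0.13 without DMSO replicate 2. By the same probe it was 0.08 without ATRA replicate 1 and -0.02 without ATRA replicate 2.

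**Figure D2:**
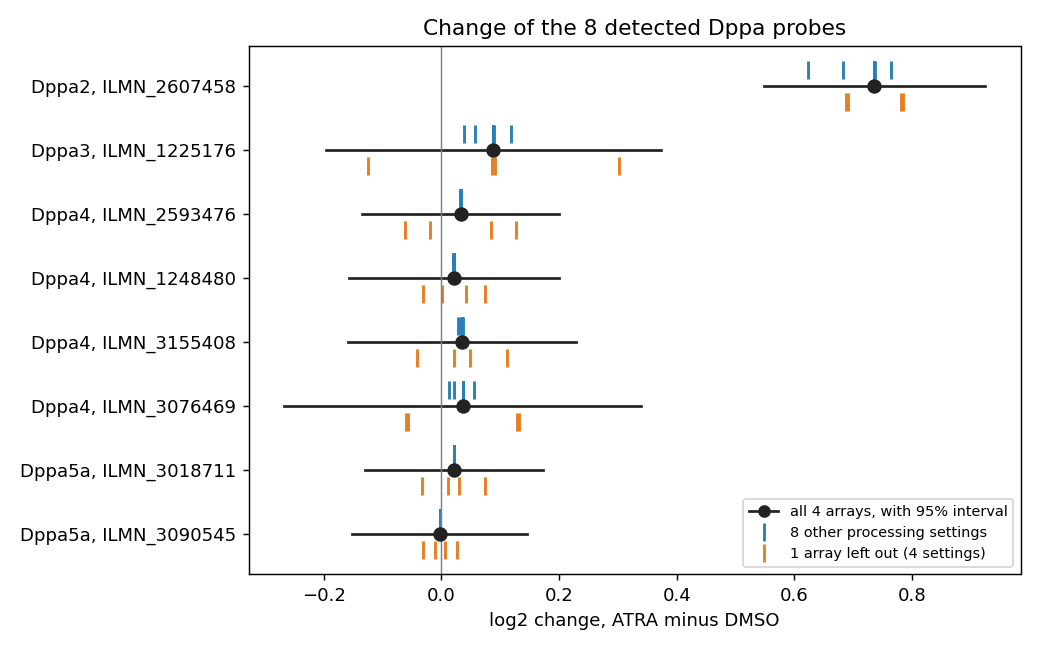
Log2 change (ATRA minus DMSO) of the 8 detected Dppa probes, where the black point and line are the value and its 95% interval from all 4 arrays, the blue marks are 8 other processing settings and the orange marks are the 4 fits with 1 array left out. Dppa2 stays between 0.62 and 0.78 under every setting shown, while the marks of each of the other 7 probes reach both sides of 0 when an array is left out.

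Dppa3, the germ cell and maternal factor, had a single probe, ILMN_1225176, with intensities of 153.8 and 153.5 on the ATRA arrays, against 160.5 and 139.3 on the DMSO arrays. The ATRA values were close to each other and lay between the DMSO values. Mean log2 intensity was 6.25 ± 0.004 with ATRA and 6.16 ± 0.30 with DMSO (SD, n = 2 each). The change was 0.09 (SE 0.14), or 1.06-fold with a 95% interval of 0.873 to 1.30 (limma adjusted p = 0.88). The gap of 0.43 on the log2 scale between the DMSO arrays was larger than the change, which was 0.30 without DMSO replicate 1 and -0.12 without DMSO replicate 2 (adjusted p = 0.30 and 0.71). Bulk RNA of this kind cannot tell fewer cells with the transcript from less transcript per cell. The RefSeq gene table of assembly GRCm38.p6 also lists a pseudogene copy, Dppa3-ps, and whether the probe reads it was not tested.

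Dppa5a, the RNA-binding protein gene, was read by 2 very bright probes. ILMN_3018711 gave 20281 and 20009 on the ATRA arrays, against 19134 and 20601 on the DMSO arrays. ILMN_3090545 gave 19828 and 20048 on the ATRA arrays, against 20378 and 19571 on the DMSO arrays. On both probes the ATRA values lay between the DMSO values, and the DMSO arrays stood in opposite order on the 2 probes.

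The changes of Dppa5a were 0.02 (SE 0.07) and -0.0024 (SE 0.07), with 95% intervals of 0.914-fold to 1.13-fold and 0.901-fold to 1.11-fold and limma adjusted p of 0.96 and 1.00. These intensities were near the top of the scale, whose highest value was 26003, and whether the bead signal still follows transcript amount in this range was not tested. The RefSeq table lists the pseudogenes Dppa5b and Dppa5c beside Dppa5a, and whether the probes read them was not tested either.

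Within each array Dppa2 was set against each of the other 7 detected Dppa probes, as a log2 ratio minus its DMSO mean. The ratios ran from 0.60 to 0.74 on ATRA replicate 1 and from 0.66 to 0.78 on ATRA replicate 2. On the DMSO arrays the 6 ratios to Dppa4 and Dppa5a ran from -0.07 to 0.05 in replicate 1 and from -0.05 to 0.07 in replicate 2. The ratio to Dppa3 was wider on the DMSO arrays, at -0.26 and 0.26, and stood at 0.60 and 0.70 on the ATRA arrays. On both ATRA arrays Dppa2 was thus higher relative to each of the other 7 probes than on either DMSO array. The ratios all share the same Dppa2 values. They restate the change of Dppa2 beside the small changes of the other probes and are not further evidence for it.

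**Figure D3:**
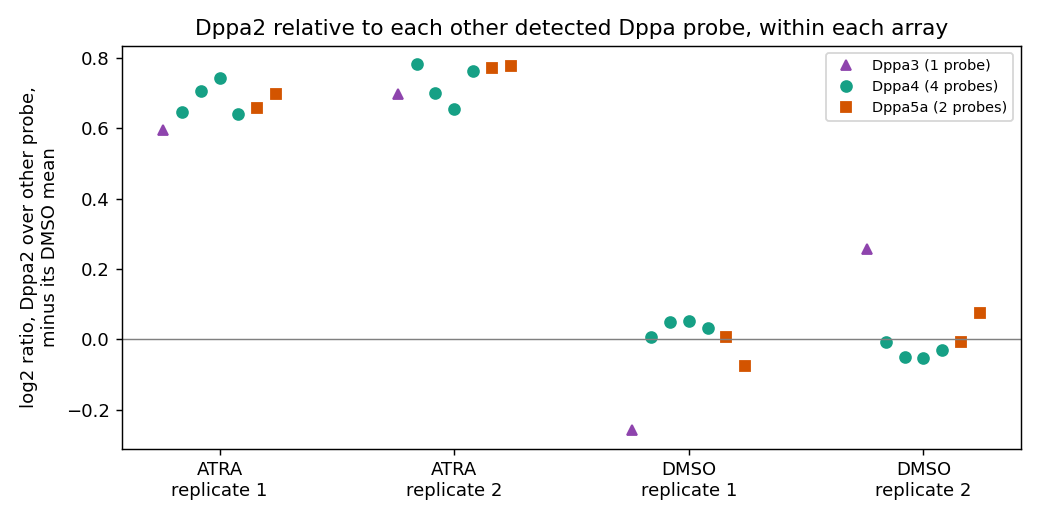
Log2 ratio of Dppa2 (probe ILMN_2607458) to each other detected Dppa probe on each array, minus the mean of that ratio over the 2 DMSO arrays; triangles are Dppa3, circles the 4 Dppa4 probes and squares the 2 Dppa5a probes. All ratios on the ATRA arrays lie between 0.60 and 0.78, and those on the DMSO arrays between -0.26 and 0.26.

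The genes that lie next to the Dppa genes were compared in the same fit, taking the 3 protein-coding genes on each side in the RefSeq table. Of 18 distinct neighbours 8 were measured, and 0 passed in limma (1 had an unadjusted p under 0.05), against 1.82% of all measured genes. Around Dppa2 and Dppa4, the cell adhesion gene Nectin3 was at -0.17 (adjusted p = 0.48), and the meiotic gene Morc1 was not kept. Around Dppa3, the pluripotency factor Nanog was at 0.20 (adjusted p = 0.25), the TGF-beta family ligand Gdf3 at -0.05, the glucose transporter gene Slc2a3 at 0.03, the RNA-editing enzyme gene Apobec1 at -0.09 and the forkhead gene Foxj2 at 0.01. Around Dppa5a, the egg protein gene Ooep was at 0.12 and the DNA sensor gene Cgas at 0.04. Other kept probes of these genes, 1 each for Nanog, Nectin3 and Cgas, did not pass either.

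By the rule fixed for likeness, the 3 genes whose values over the 4 arrays lay closest to those of Dppa2 were Slc43a1, Notch4 and Ksr1. Likeness was the Euclidean distance between log2 values centred on each gene's own mean, and it was 0.08, 0.09 and 0.09; with 4 arrays it mostly restates the size of the change. Slc43a1, an amino acid transporter gene, had 197.4 and 200.6 on the ATRA arrays, against 146.4 and 148.8 on the DMSO arrays, and rose by 0.80 (limma adjusted p = 0.00019), as did its other probe (0.97). Notch4, a Notch receptor gene, had 501.3 and 502.9 on the ATRA arrays, against 311.3 and 335.6 on the DMSO arrays, and rose by 0.79 (adjusted p = 1.2e-05), while its other probe, with a change of 0.46, did not pass (adjusted p = 0.36). Ksr1, a scaffold gene of the RAS and MAP kinase pathway, had 126.5 and 127.2 on the ATRA arrays, against 105.5 and 109.7 on the DMSO arrays. Its DMSO values lay close to the detection limit. Ksr1 rose by 0.71 (adjusted p = 0.016), by 0.24 with no background correction and by 1.26 by the floored series matrix values. It missed the threshold with no filter on dim probes (adjusted p = 0.055) and without ATRA replicate 1 or 2 (changes of 0.72 and 0.70).

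Genes reported to depend on Dppa2 and Dppa4, chiefly genes of the early embryo and the germline, were mostly below detection or without a named probe. Of 19 listed, 5 had no probe named for them (Dux, Duxf3, Zscan4d, Zscan4f and Usp17la) and were not measured. Of 14 with a probe, 9 were detected on no array, among them Zfp352, Mael, Nkx2-5 and Hand1, and 5 were measured. In limma 0 of 5 passed (1 had an unadjusted p under 0.05), against 1.82% of all measured genes, and the median change was 0.06, against -0.0069 over all kept probes. This list and those below were chosen with earlier results of these data known, so nothing is read against such shares. Zscan4c, a marker of the early-embryo-like state from a family of near-identical genes, had 557.5 and 591.6 on the ATRA arrays, against 478.7 and 561.8 on the DMSO arrays, and was at 0.17 (adjusted p = 0.53). It passed without DMSO replicate 2 (0.31, adjusted p = 0.039), while its other kept probe, near the detection limit, was at -0.13 (adjusted p = 0.86). Tcstv1, another gene of that state, was at 0.31 (adjusted p = 0.20), Tdpoz1 at -0.22 (adjusted p = 0.73) and Syce1, a gene of meiotic chromosome pairing, at -0.04. The Tdpoz1 probe lay near the detection limit and was detected on 1 array of each group. It had 106.8 and 101.3 on the ATRA arrays, against 104.2 and 114.2 on the DMSO arrays.

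Genes of the DNA methylation machinery were set beside Dppa3, and 7 were measured. In limma 0 of 7 passed (2 had an unadjusted p under 0.05), against 1.82% of all measured genes, with a median change of -0.03. Uhrf1, the cofactor that Dppa3 binds, had 3504 and 3483 on the ATRA arrays, against 3834 and 3366 on the DMSO arrays, so that the groups overlapped, and was at -0.04 (adjusted p = 0.91). The maintenance methyltransferase gene Dnmt1 was at 0.19 (adjusted p = 0.60) but at 0.46 without DMSO replicate 2 (adjusted p = 0.00045). The methylation cofactor gene Dnmt3l was at -0.21 (adjusted p = 0.36), and at -0.31 without DMSO replicate 2 (adjusted p = 0.018). The hydroxylase gene Tet1 was at -0.16 (adjusted p = 0.43), while Dnmt3a, Tet3 and Hells were detected on no array.

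Dppa5a was set beside KH-domain relatives and the maternal complex that some of them join in the egg. Of 8 such genes 5 were detected on no array, 3 were measured and 1 rose, against 1.46% of all measured genes. Tle6, a subunit of that complex related to the Groucho co-repressors, had 274.8 and 275.3 on the ATRA arrays, against 188.5 and 190.2 on the DMSO arrays. Both ATRA arrays were above both DMSO arrays, and the rise was 1.77-fold (95% interval 1.52 to 2.05, limma adjusted p = 2.4e-05). Tle6 passed with any array left out and without the intensity trend (adjusted p = 0.020). Its KH-domain partners were at -0.11 for Khdc3 (adjusted p = 0.71) and 0.12 for Ooep (adjusted p = 0.61).

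Among 11 measured transcripts associated with embryonic stem cells, 1 rose and 1 fell, against 1.46% and 0.363% of all measured genes, with a median change of -0.05. Eras, a constitutively active RAS relative, had 1457 and 1388 on the ATRA arrays, against 991.4 and 1014 on the DMSO arrays, and rose 1.45-fold (95% interval 1.29 to 1.63, limma adjusted p = 0.00032), though not without the intensity trend (adjusted p = 0.094). Zfp42, a naive-state zinc finger gene, had 3977 and 4312 on the ATRA arrays, against 5475 and 5407 on the DMSO arrays, and fell by 0.40 (adjusted p = 0.0041), but missed the threshold without ATRA replicate 1 (adjusted p = 0.15) and without the intensity trend (0.21). Dppa1, a further gene of the Dppa name, was detected on 0 of 4 arrays. Of the rest, Nanog was at 0.20, Dnmt3l at -0.21 and the kinase coactivator gene Tcl1 at -0.18, none of which passed.

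Of 14 pluripotency transcription factors, all measured, 0 rose and 3 fell (Zfp42, Sox2 and Klf5), against 1.46% and 0.363% of all measured genes, and the median change was -0.02. The list was chosen with earlier results of these data known, so nothing is read against these shares. Klf5 fell by 0.34 (limma adjusted p = 0.041), and missed the threshold when DMSO replicate 1 (adjusted p = 0.13) or ATRA replicate 1 (0.58) was left out, with no background correction (0.055), with no filter on dim probes (0.068), without the intensity trend (0.36) and by the floored series matrix values (0.096). Sox2 fell by 0.39 (adjusted p = 0.019), and missed it when ATRA replicate 1 (adjusted p = 0.22) or 2 (0.23) was left out and without the intensity trend (0.20). Its other kept probe did not pass (-0.23, adjusted p = 0.51). The T-box gene Tbx3, of the naive state, had a change of 0.29 (adjusted p = 0.10) and passed without DMSO replicate 1 (0.35, adjusted p = 0.014). Another kept Tbx3 probe, ILMN_3139514, passed with all arrays (0.36, adjusted p = 0.030). The nuclear receptor gene Nr5a2 was at -0.22 (limma adjusted p = 0.28), while its other kept probe, ILMN_2813203, was at 0.0062 (adjusted p = 0.99).

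**Figure D4:**
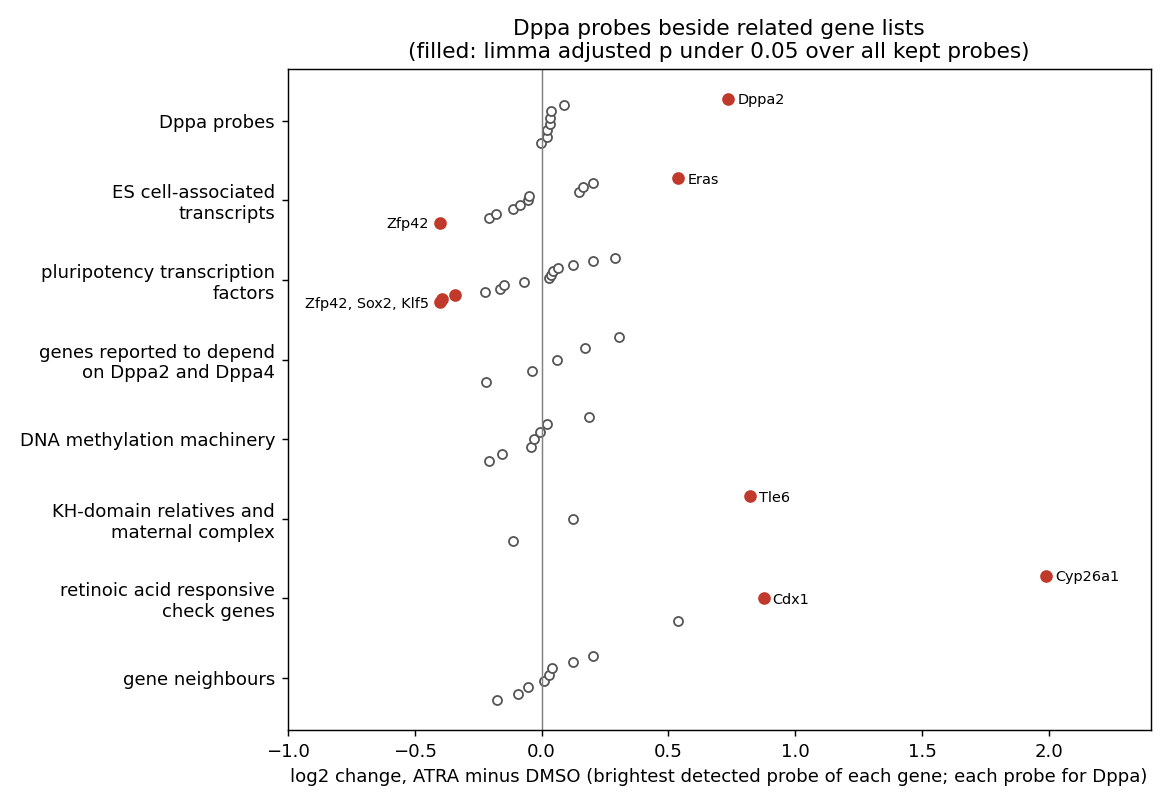
Log2 change (ATRA minus DMSO) of the 8 detected Dppa probes, of the brightest kept probe of each measured gene in 6 lists, and of the 8 measured neighbours; filled points passed limma's adjusted p of 0.05 over all kept probes. Dppa2, at 0.74, is the only filled Dppa point, Tle6 at 0.82 and Eras at 0.54 are filled on the same side, and no neighbour is filled.

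As a check of the treatment, Cyp26a1, which encodes an enzyme that breaks down retinoic acid, had 204.5 and 191.4 on the ATRA arrays, against 104.6 and 111.1 on the DMSO arrays (3.97-fold, 95% interval 3.25 to 4.84). The DMSO values lay close to the detection limit and the size of its change, 1.99 on the log2 scale, moved with the processing, to 0.88 with no background correction, 1.26 with an offset of 50 and 2.90 by the floored series matrix values. Another Cyp26a1 probe, ILMN_2691295, was detected on ATRA replicate 2 alone and was not kept. It had 102.9 and 106.9 on the ATRA arrays, against 89.3 and 92.3 on the DMSO arrays. Without the filter on dim probes its change was 0.47 and did not pass (limma adjusted p = 0.068). Cdx1, a caudal homeobox gene, rose 1.83-fold (limma adjusted p = 0.00083), though not without the intensity trend (adjusted p = 0.090), and its other kept probe rose 2.99-fold (adjusted p = 6.7e-08). With no background correction the log2 changes of the dim probes of Cdx1, Slc43a1 and Tle6 were 0.42, 0.43 and 0.54, each still past the threshold. Rarb was undetected on both DMSO arrays and met the filter only through the ATRA arrays, so its p-values are no check of the treatment. Its mean with ATRA was 1.10-fold the lowest detected level of the DMSO arrays. It did not pass in limma (adjusted p = 0.19), though it did with no background correction (adjusted p = 0.043). All 10 embryonic stem cell markers were kept, with summed intensities of 27884 and 28722 on the ATRA arrays, against 29314 and 30419 on the DMSO arrays. Fibroblast feeder markers were kept for 4 of 10, namely Col1a1, Col3a1, Thy1 and Acta2 (sums of 5114 and 5068 with ATRA, 5805 and 5117 with DMSO). Of these 4, 0 passed in limma, 1 was higher and 3 were lower, with a median change of -0.07. Dcn, Lum, Postn, Col1a2, Col6a1 and Twist2 were detected on no array. Primitive endoderm markers were kept for 5 of 10 (1299 and 1307 with ATRA, 1322 and 1302 with DMSO) and trophectoderm markers for 4 of 9 (3441 and 3407 with ATRA, 2429 and 2364 with DMSO). Of the 4 kept trophectoderm markers, 3 were higher and 1 lower, with a median change of 0.15, so the sums need not describe each gene. Tfap2c alone of them passed, with a rise of 0.81 (limma adjusted p = 5.6e-07). Gata3, Elf5 and Hand1 were detected on no array. Of the primitive endoderm markers Sox17, Pdgfra, Foxa2 and Afp were detected on no array, and Gata6 rose, with 130.47 and 116.70 on the ATRA arrays, against 100.01 and 107.76 on the DMSO arrays (change 0.75, adjusted p = 0.027). Gata6 was undetected on DMSO replicate 1, and missed the threshold without DMSO replicate 1 (adjusted p = 0.082) or ATRA replicate 1 (0.62), with no filter on dim probes (0.080), without the intensity trend (0.15) and by the floored series matrix values (0.064). The part of other cell types in the Dppa2 and Tle6 results was not tested.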

How the data were processed

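The authors deposited linear intensity values, made with GenomeStudio per the submitters' processing notes (version not given in the sources used here), with a detection p-value per probe per the file headers. The sorted deposited intensities of the 4 arrays agreed to within 0.228, so they were already quantile normalized, which hides any shift shared by most probes. The series matrix repeats these intensities less 93.5. With limma 3.58.1 in R 4.3.3, neqc corrected the background by normexp, added an offset of 16, quantile normalized and took log2, so each change is one of log2(value + offset) and is understated for dim probes. Of 45281 probes, 19112 (42.2%) had a detection p under 0.05 on at least 2 arrays and were kept. Symbols came from the platform annotation: 34885 probes had 1 symbol, of which 34807 matched RefSeq genes of GRCm38.p6 by Entrez identifier. The files name no genome build, and coordinates are left out. The fit of ATRA against DMSO used lmFit, then eBayes with an intensity trend, Benjamini-Hochberg adjusted over all kept probes (threshold 0.05). The fit was also run on data simulated from its own variance model, which cannot show whether that model holds for these arrays. A gene's brightest kept probe represents it. Named are all member probes, list genes that passed and up to 3 of the largest changes among the rest (of the marker lists, those that passed alone), neighbours, and the 3 patterns nearest to Dppa2. Members and lists were chosen with earlier results of these data known. The number of arrays, 4, limits the precision: an exact permutation test of 2 against 2 cannot give a p under 0.333. Alternatives varied the background correction, offset, quantile step, filter, variance model, value table, replicate block and arrays used.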

Additional observations from a re-analysis of the deposited data

How the results depend on the processing

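The number of kept probes past the threshold (302) was 492 with the replicate block, 74 without the intensity trend and 133 to 956 with 1 array left out, while 1 Dppa probe passed under all 12 alternatives. Same-numbered arrays did not deviate together (correlations of -0.003 across probes), so the replicate block has no further basis than the labels' numbers; under it Dppa2 was at 0.74 (adjusted p = 6.3e-12) and Tbx3 passed (adjusted p = 0.049). The change of Dppa2 ran from 0.62 with no background correction to 0.78 without ATRA replicate 1, and its adjusted p was highest without the intensity trend (0.037). With 1 array left out, a fit in which the lone array is assumed to vary like the others, changes ran from -0.12 to 0.30 for Dppa3, from -0.062 to 0.13 for the brightest Dppa4 probe, from -0.032 to 0.074, -0.060 to 0.13 and -0.041 to 0.11 for Dppa4 probes ILMN_1248480, ILMN_3076469 and ILMN_3155408, and from -0.032 to 0.075 and -0.032 to 0.027 for Dppa5a probes ILMN_3018711 and ILMN_3090545. Those of Cgas ran from -0.00022 to 0.079, Dnmt1 from -0.084 to 0.46, Foxj2 from -0.39 to 0.41, Gdf3 from -0.165 to 0.055, Khdc3 from -0.23 to 0.0050 and Slc2a3 from -0.028 to 0.090. Foxj2 was also at -0.0072 with no background correction and -0.0083 with an offset of 50. With 1 array left out, genes past the threshold numbered 1 to 4 among transcripts associated with embryonic stem cells. In the same fits they numbered 0 to 3 among pluripotency factors and 0 to 1 among genes reported to depend on Dppa2 and Dppa4. In the DNA methylation machinery they numbered 0 to 2. Without the intensity trend genes past the threshold numbered 0 among the transcripts associated with embryonic stem cells and 0 among pluripotency factors. Among the retinoic acid check genes they numbered 1 in that fit. The causes were not tested. Detection p limits the dim Dppa2 probe and most list genes of the early embryo.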
